A study of Mus musculus with 107 samples.

Results

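The T cell checkpoint and costimulatory receptors are 10 genes, taken by their symbols from the 50686 genes whose expression was measured in 107 mouse tumors. All 10 were found, each as a single row of the table. They comprise 6 inhibitory receptors (Pdcd1, Ctla4, Lag3, Havcr2, Tigit and Btla) and 4 costimulatory receptors (Icos, Cd28, Cd27 and Tnfrsf9). The tumors come from 12 mouse syngeneic models, in which a cancer cell line was transplanted under the skin of 7-week-old mice of the strain shared with the line. The lines are 4T1 and EMT6 from breast, KLN205 and LL/2 from lung, MC38 and CT26.WT from colon or rectum, RAG and Renca from kidney, Hepa 1-6 and BNL 1ME A.7R.1 from liver, B16-F10 from melanoma and MBT2 from bladder, and the RAG cells had been adapted in vivo. The hosts were BALB/cAnNCrlCrlj mice for BNL 1ME A.7R.1, RAG, Renca, CT26.WT, 4T1 and EMT6, C57BL/6NCrl for MC38 and B16-F10, C57BL/6JCrl for LL/2, C3H/HeNCrl for MBT2, DBA/2NCrl for KLN205 and C57L/J for Hepa 1-6, so that strain and model cannot be told apart for the 4 strains that hosted 1 model each. Hosts were male for BNL 1ME A.7R.1 and Hepa 1-6 and female for the others. Treatment-naive tumors (35) were collected at about 100 mm3. No treatment (NT, 36 tumors) and lenvatinib (LEN, 36 tumors) groups were collected on day 8, LEN having been given orally at 10 mg/kg daily. LEN is an inhibitor of the kinases of VEGF and FGF receptors. There were 3 tumors in each of the 36 groups of model and arm, but 2 in treatment-naive MC38.

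A T cell is activated when its antigen receptor signals together with a costimulatory receptor. CD28 binds CD80 and CD86 on antigen-presenting cells, ICOS binds ICOS ligand, and CD27 and 4-1BB (encoded by Tnfrsf9) are members of the TNF receptor family that bind CD70 and 4-1BB ligand. The inhibitory receptors limit this response. PD-1 (encoded by Pdcd1) binds PD-L1 and PD-L2, CTLA-4 competes with CD28 for CD80 and CD86, LAG-3 binds MHC class II molecules, TIM-3 (encoded by Havcr2) binds galectin-9 among other ligands, TIGIT binds the poliovirus receptor, and BTLA binds HVEM. Several of these genes are induced by activation of the T cell and remain expressed in exhausted T cells of tumors. Expression is not restricted to T cells, since TIM-3 is also found on macrophages and dendritic cells, BTLA on B cells and dendritic cells, CD27 on B and NK cells, and 4-1BB on NK cells, dendritic cells and other cell types.

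The receptors lie at few loci of the mouse genome (GRCm38, GENCODE M21). Cd28 (chr1:60716800-60773359), Ctla4 (chr1:60887000-60915832) and Icos (chr1:60977927-61000320) are neighbors on the plus strand of chromosome 1, where Pdcd1 (chr1:94038305-94052553) is on the minus strand. Lag3 (chr6:124904361-124911705) and Cd27 (chr6:125232622-125237010) lie on chromosome 6, Tigit (chr16:43648867-43664146) and Btla (chr16:45224315-45257670) on chromosome 16, Havcr2 (chr11:46454935-46481255) on chromosome 11 and Tnfrsf9 (chr4:150914562-150946102) on chromosome 4. All of Cd27 lies within Vamp1, and 28781 bases of Tnfrsf9 within Camta1, both genes of the opposite strand with 0 shared exon bases. Cd27 also shares 129 exon bases with the microRNA gene Mir8113. Whether the counting used strand is not given in the sources used here.

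Of the receptors that rose with LEN, Tnfrsf9, Ctla4 and Tigit had the largest mean changes of log2(TPM + 1) among those with a RefSeq promoter window (GRCm38.p6; with a pseudocount of 0.1 in place of 1, Pdcd1 came before Tigit), and the bases before their transcription starts are shown so that the elements known from activated T cells can be seen. Capitals mark matches, on either strand, to the core of NFAT sites (GGAAA), to AP-1 sites (TGANTCA) and to the NF-kB consensus. These are matches of letters only. They are found in 55.6%, 6.75% and 3.9% of 32851 windows of 250 bases, respectively.
Tnfrsf9, chr4:150919905-150920154, plus strand: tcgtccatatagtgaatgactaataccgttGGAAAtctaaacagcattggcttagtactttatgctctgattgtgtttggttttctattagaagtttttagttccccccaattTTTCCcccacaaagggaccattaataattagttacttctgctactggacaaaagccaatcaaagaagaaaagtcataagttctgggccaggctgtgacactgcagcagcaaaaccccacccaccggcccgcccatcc
Tnfrsf9, second start, chr4:150927749-150927917, plus strand: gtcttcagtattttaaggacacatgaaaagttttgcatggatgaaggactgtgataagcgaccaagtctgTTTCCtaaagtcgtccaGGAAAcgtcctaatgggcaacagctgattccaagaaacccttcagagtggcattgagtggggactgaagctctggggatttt
Ctla4, chr1:60908775-60909024, plus strand: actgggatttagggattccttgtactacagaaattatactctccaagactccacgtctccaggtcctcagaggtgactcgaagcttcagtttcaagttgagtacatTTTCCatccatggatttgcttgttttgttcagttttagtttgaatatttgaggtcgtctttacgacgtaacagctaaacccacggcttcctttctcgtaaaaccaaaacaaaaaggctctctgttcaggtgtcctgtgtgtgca
Tigit, chr16:43664185-43664434, minus strand: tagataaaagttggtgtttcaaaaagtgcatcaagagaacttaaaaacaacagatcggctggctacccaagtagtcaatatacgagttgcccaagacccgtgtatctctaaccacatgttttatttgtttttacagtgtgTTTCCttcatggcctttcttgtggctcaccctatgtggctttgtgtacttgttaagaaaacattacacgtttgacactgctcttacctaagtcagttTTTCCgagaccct
The first Tnfrsf9 window held 2 NFAT cores, the Ctla4 window 1 and the Tigit window 2, and none of these windows held an AP-1 or NF-kB match. The second Tnfrsf9 window held 3 NFAT cores, 1 AP-1 match at base -15 and 2 overlapping NF-kB matches from base -43, counted from the start. One of these NFAT cores, at base -38, overlaps the NF-kB matches, and the last 81 bases of that window are an exon of another Tnfrsf9 transcript and are not shown. This NFAT core and the AP-1 and NF-kB matches lie in the bases not shown. The RefSeq start of Tigit lies beyond the end of the gene in GENCODE M21 (base 43664146), and the bases after it were not found in the transcripts there.

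Expression was deposited as TPM, an abundance relative to all transcripts of a tumor that is adjusted for gene length, and every difference below is one of log2(TPM + 1), which understates the change of genes at low TPM. The depth per tumor is unknown. The share of TPM from protein-coding genes ranged from 27.5% to 66.6%, and the LEN tumor 4T1 replicate 4 was lowest with 27.5% (the next lowest tumor had 37.1%). The 3 abundant non-coding RNAs Rn7s1, Rn7s2 and Rn7sk took between 13.6% and 38.6%. Among the NT tumors of CT26.WT, replicate 5 was far lower in T cell genes than replicates 1 and 3, with 0.41 TPM of Lag3 (2.59 and 5.91 TPM in the others) and 0.08 TPM of Pdcd1 (3.09 and 3.56 TPM). Nothing in the labels gives the sequencing batch, and nothing states more about replicates than that they are separate tumors.

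In the treatment-naive tumors, Hepa 1-6 had the highest mean of 8 of the 10 receptors, and the exceptions were Havcr2, which was highest in MBT2, and Tnfrsf9, which was highest in CT26.WT. The level of each of the 10 receptors differed between the 12 models (F test by limma, adjusted p between 8.44e-17 for Tigit and 4.21e-05 for Btla). As 86.1% of all 25664 genes tested differed between these models, this count of 10 is close to what genes in general show. Among the inhibitory receptors, Pdcd1 was measured at 5.59, 9.05 and 11.03 TPM in the 3 Hepa 1-6 tumors, at 2.49 and 3.02 TPM in MC38, and between 1.03 and 3.39 TPM in CT26.WT. The Hepa 1-6 tumors lay above all others, and the 3 models with the lowest means (LL/2, BNL 1ME A.7R.1 and KLN205) lay between 0.04 and 0.29 TPM. Ctla4 followed a like order, with means of 6.50 ± 0.75 TPM (SD, n = 3) in Hepa 1-6, 2.93 ± 0.24 (n = 2) in MC38 and 2.84 ± 0.13 (n = 3) in MBT2, the last of which lay above all remaining models without overlap.

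Lag3 and Tigit departed from this order. Lag3 was 23.4 ± 3.52 TPM (SD, n = 3) in Hepa 1-6, followed by RAG with 10.2, 12.7 and 15.6 TPM in its 3 tumors and MC38 with 5.23 and 5.43 TPM. Apart from Hepa 1-6, no tumor of another model reached the RAG values. Tigit was 34.0 ± 7.82 TPM in Hepa 1-6, followed by 4T1 (12.5 ± 1.58), CT26.WT (10.4 ± 0.44) and MC38 (5.79 ± 0.64), and each of the first 3 lay above the next without overlap. The KLN205 tumors, which had the lowest T cell marker level of the 12 models, still held 4.92 ± 0.51 TPM of Tigit and 3.23 ± 1.03 TPM of Lag3. Havcr2 had means from 1.58 ± 0.18 TPM in B16-F10 to 9.66 ± 2.11 TPM in MBT2, which overlapped with Hepa 1-6 (7.11 ± 2.94 TPM). Btla was low throughout, from 0.3 TPM in KLN205 to 1.48 TPM in Hepa 1-6, and all 11 pairs of neighbors in its order of models overlapped.

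Of the costimulatory receptors, Icos and Cd28 were again highest in Hepa 1-6 (5.70 ± 0.65 and 6.63 ± 0.98 TPM) and second in MC38 (4.11 ± 0.18 and 1.66 ± 0.092 TPM), without overlap between those models. Cd28 showed the widest range of the 10 as a fold of mean TPM, with 71.0-fold between Hepa 1-6 and KLN205 (0.093 ± 0.021 TPM). In log2(TPM + 1) other receptors spread more. The means of Tigit were 5.11 in Hepa 1-6 and 0.79 in B16-F10, and those of Cd28 were 2.92 in Hepa 1-6 and 0.13 in KLN205. Cd27 ranged only from 2.66 ± 0.70 TPM in LL/2 to 14.2 ± 3.80 TPM in Hepa 1-6. Tnfrsf9 was the most abundant receptor on the TPM scale, with a median of 12.6 TPM over the 35 tumors, against 6.07 TPM for Cd27, 4.43 TPM for Havcr2 and 0.43 TPM for Pdcd1. Its values were 30, 33.8 and 69.3 TPM in CT26.WT and 35.3, 35.8 and 51.6 TPM in Hepa 1-6, which overlapped, and the lowest mean was that of B16-F10 (5.1 to 6.67 TPM), although the lowest single tumor, with 4.5 TPM, was of MBT2. Neighbors in the order of the 12 models overlapped in 7 (Tigit, Cd28) to 11 (Btla) of 11 pairs, so that mainly the upper ends of these orders are resolved.

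**Figure D1:**
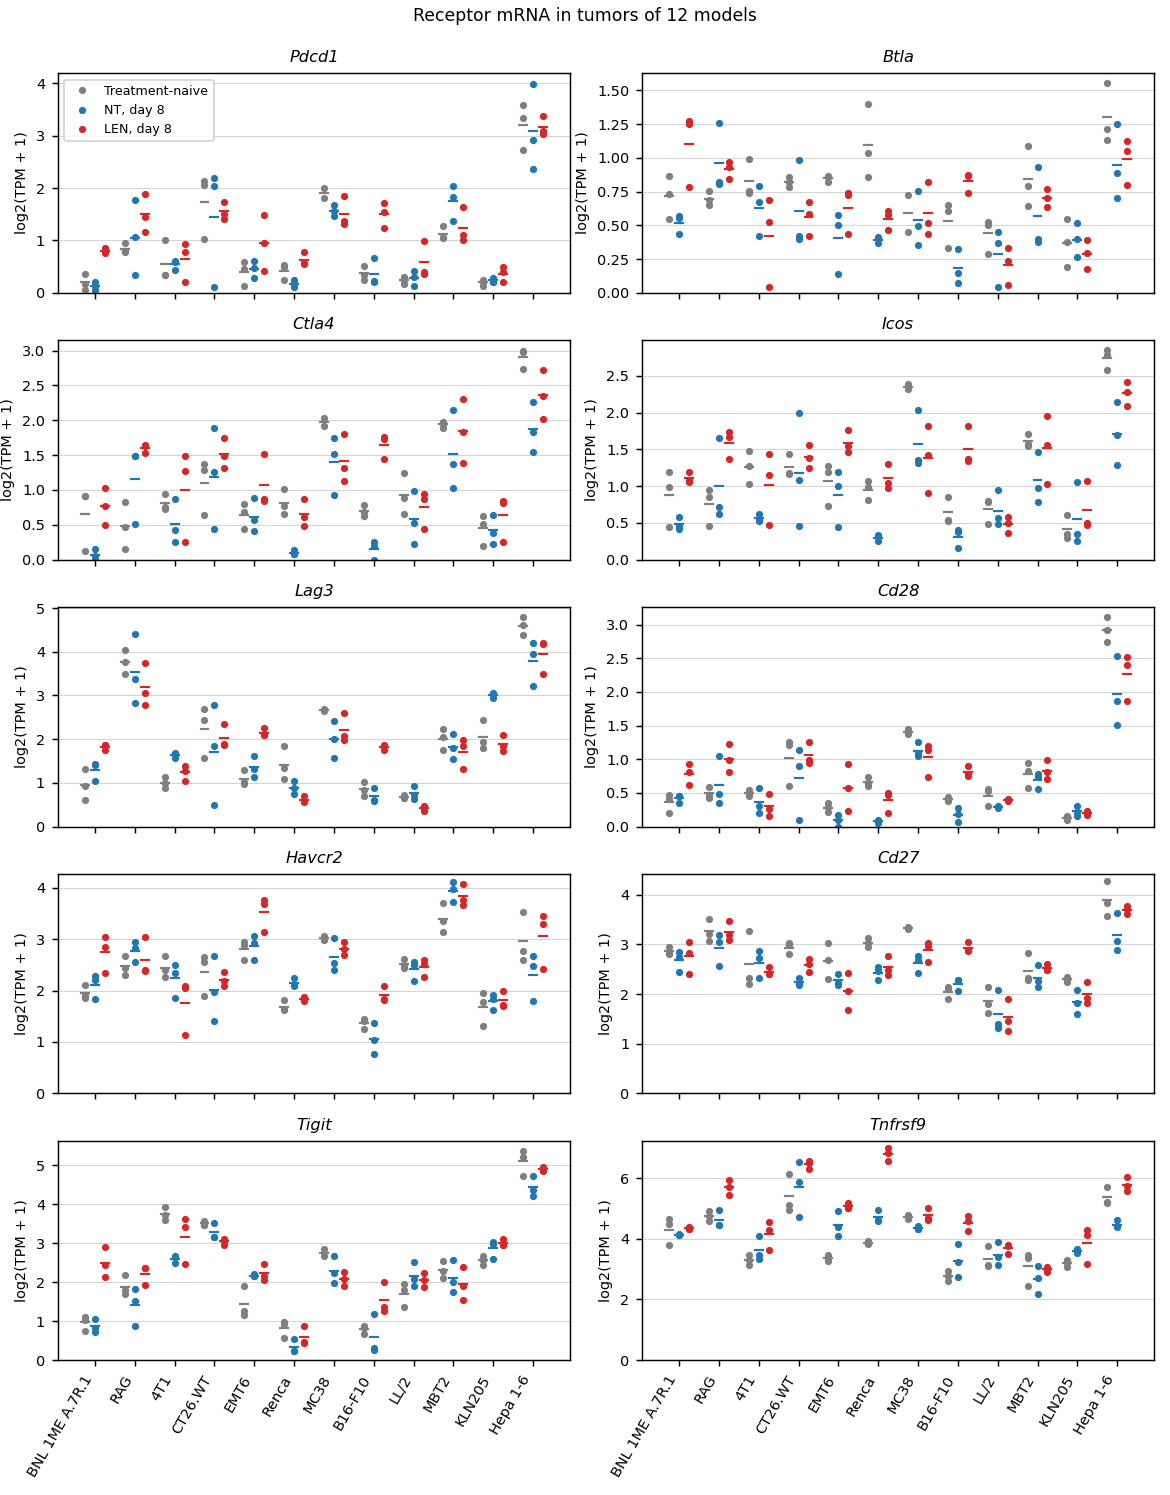
Expression of the 10 receptors as log2(TPM + 1) in each of the 107 tumors, by model, with treatment-naive tumors in gray, NT tumors of day 8 in blue and LEN tumors of day 8 in red. Points are tumors and short lines are means of log2(TPM + 1). Hepa 1-6 stands highest in most panels, and Tnfrsf9 in Renca rises from 13.6 TPM in treatment-naive tumors to 111 TPM with LEN.

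The levels were set beside those of 8 genes of the T cell receptor complex and its signaling (among them Cd3d, Cd3e, Cd3g, Cd6, Cd247 and Lat). Their summed level was between 3.1 and 149 TPM in the treatment-naive tumors, and Cd3d was at 0 in some of these tumors. Over the 12 model means, the correlation of a receptor with the mean log2(TPM + 1) of these markers was highest for Cd28 (Pearson's r = 0.97, Spearman's rho = 0.93) and Pdcd1 (r = 0.93, rho = 0.91) and was lowest by Pearson's r for Havcr2 (r = 0.48, rho = 0.57) and by Spearman's rho for Tigit (r = 0.69, rho = 0.52). Without Hepa 1-6 and KLN205, the models farthest from the median of the markers, these became 0.87 for Cd28, 0.81 for Pdcd1 and 0.35 for Havcr2. Without these models r fell from 0.79 to 0.44 for Btla, the largest fall, from 0.87 to 0.62 for Ctla4 and from 0.69 to 0.48 for Tigit. The values of a point come from the same libraries. In RNA of whole tumors, fewer cells of a type and less RNA per cell cannot be told apart.

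**Figure D2:**
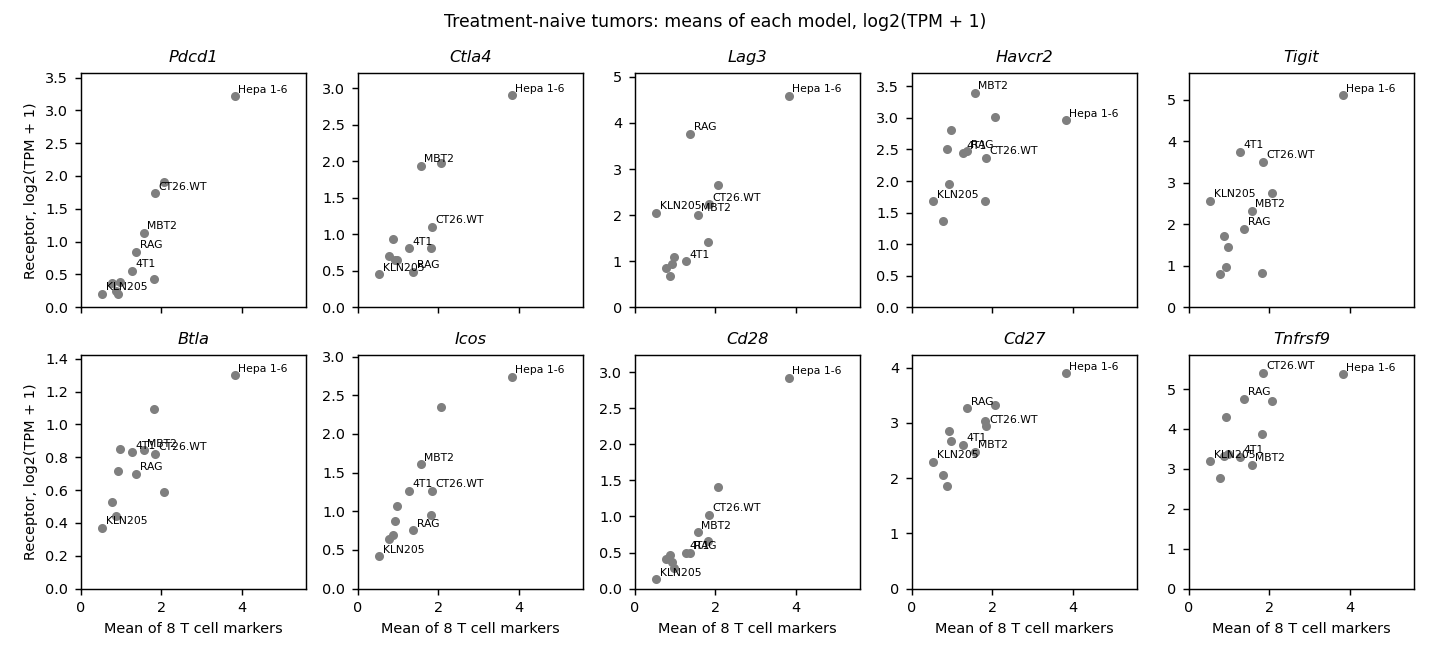
Mean level of each receptor against the mean of the 8 T cell markers in the treatment-naive tumors of the 12 models, both as log2(TPM + 1), with 1 point per model and 6 models labelled. Cd28 and Pdcd1 follow the markers most closely (r = 0.97 and 0.93), whereas RAG has more Lag3 than any model but Hepa 1-6, and KLN205 has the lowest marker mean but 4.92 TPM of Tigit.

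The receptors also differed in which other genes they resembled. For each receptor, the genes with the highest Pearson's r over the 107 tumors were taken from 25826 genes, as a description in which model, group and library are shared by all points. Pdcd1 was most like Cd8a (r = 0.95), Cd8b1 (0.93) and Cd3g (0.93), the coreceptor chains of cytotoxic T cells and a chain of the T cell receptor complex, and Cd28 was most like Cd8b1 (0.94) and Cd8a (0.93). Ctla4 was most like Icos (0.89), Pdcd1 (0.85) and Gimap7 (0.84), and Icos was most like Il2ra (0.90), the alpha chain of the IL-2 receptor, Ctla4 (0.89) and Il7r (0.88). Lag3 was most like Pdcd1lg2 (0.87), which encodes PD-L2, Tlr12 (0.87) and Slamf8 (0.86), and Havcr2 was most like Lpxn (0.88), Plek (0.87) and Tnfsf13b (0.82), which encodes the B cell factor BAFF. For Tigit they were Jade2 (0.82), Jak2 (0.81) and Pglyrp1 (0.80). For Btla they were Irf8 (0.79), a transcription factor of dendritic cells and macrophages, Tlr11 (0.78) and Ccl8 (0.77), and Cd27 shared Irf8 (0.76), followed by BC023105 (0.76) and Sept1 (0.75). The lowest of these values belonged to Tnfrsf9, with Vldlr (0.76), C1s1 (0.73) and Trim56 (0.72). Among the receptors themselves, r was highest between Pdcd1 and Cd28 (0.92) and lowest between Havcr2 and Tnfrsf9 (0.0063).

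To ask how LEN changes these receptors, LEN tumors were compared with NT tumors of the same day over the 12 models. As the study reports varying inhibition of tumor growth by LEN, effects of the drug and of tumor size cannot be told apart here. All 4 costimulatory receptors rose on average, as did 3 of the 6 inhibitory receptors (Pdcd1, Ctla4 and Tigit), and none fell. Thus 7 of the 10 were higher with LEN, whereas 10.7% of the 25636 genes tested were higher and 7.56% lower. The median difference was 0.26 over the 10 receptors and 0.00043 over all genes. Of all genes called, 58.6% were higher, a share that became 43.7% with upper-quartile rescaling and 37.2% with rescaling without the Rn7 RNAs, while the number of receptors higher was between 6 and 8 over these and 6 other alternatives.

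The largest mean change of log2(TPM + 1) was that of Tnfrsf9. It was between 3.58 and 90.9 TPM in the NT tumors (median 16.7) and between 6.49 and 126 TPM in the LEN tumors (median 24.2), and the model mean was higher with LEN in 12 of 12 models. The mean difference was 0.75 ± 0.080 (SE, adjusted p = 1.64e-10). Ctla4 was between 0 and 3.79 TPM in the NT tumors (median 0.46), 2 of which were listed at 0, and between 0.19 and 5.6 TPM in the LEN tumors (median 1.495). Its model means were also higher with LEN in 12 of 12 models (0.47 ± 0.086, adjusted p = 2.86e-05). Icos rose by a similar amount, from a median of 0.54 to 1.56 TPM, and was higher in 10 of 12 models (0.45 ± 0.080, adjusted p = 2.25e-05). The change of Tigit (0.35 ± 0.072, adjusted p = 0.00023) was carried by 8 of 12 models, its median being 3.45 TPM in NT and 3.95 TPM in LEN tumors. The median of its 12 model differences was 0.19, and without BNL 1ME A.7R.1 its mean difference was 0.23 (adjusted p = 0.031).

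On the same scale, smaller changes were measured for Pdcd1 (0.28 ± 0.093, adjusted p = 0.027, higher in 10 of 12 models), Cd28 (0.24 ± 0.054, adjusted p = 0.00069, 9 of 12) and Cd27 (0.19 ± 0.055, adjusted p = 0.011, 9 of 12). The order of the receptors depended on the pseudocount. With 0.1 the change was 1.12 for Ctla4, 0.88 for Icos, 0.79 for Tnfrsf9, 0.78 for Pdcd1, 0.70 for Cd28, 0.55 for Tigit and 0.21 for Cd27, so that Ctla4 and not Tnfrsf9 had the largest. The remaining inhibitory receptors did not pass the test. Havcr2 differed by 0.19 ± 0.072 (adjusted p = 0.059), Btla by 0.11 ± 0.046 (adjusted p = 0.085) and Lag3 by 0.045 ± 0.088 (adjusted p = 0.79), the last being higher in 6 models and lower in 6. Without 4T1 replicate 4 of the LEN group, the library low in protein-coding genes, Havcr2 (0.22, adjusted p = 0.018) and Btla (0.13, adjusted p = 0.031) also passed and 9 receptors were higher. The same count was reached without NT replicate 3 of CT26.WT (Havcr2 0.22, adjusted p = 0.019, and Btla 0.13, adjusted p = 0.034), without NT replicate 4 of Hepa 1-6 and without the model 4T1. Without NT replicate 5 of CT26.WT, the tumor low in T cell genes, 7 were higher and Lag3 differed by -0.0052 (adjusted p = 0.98). Pdcd1 was no longer called without any of BNL 1ME A.7R.1, EMT6, Renca or B16-F10 (adjusted p = 0.11, 0.058, 0.070 and 0.18), and neither was Cd27 without B16-F10 (adjusted p = 0.12) or with rescaling without the Rn7 RNAs (adjusted p = 0.055).

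**Figure D3:**
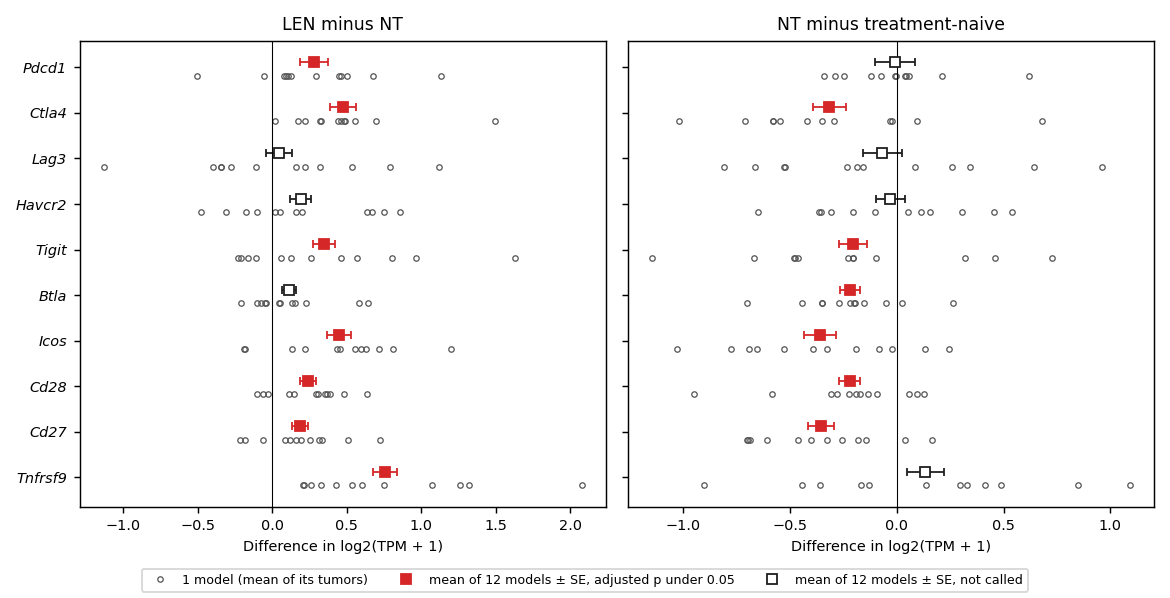
Difference in log2(TPM + 1) of the 10 receptors for LEN minus NT (left) and for NT minus treatment-naive tumors (right). Squares are means of 12 models with their SE, filled in red where the adjusted p is under 0.05, and open circles are the differences of single models. All 12 models lie above 0 for Ctla4 and Tnfrsf9 with LEN, and the NT tumors enter both comparisons.

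Markers of T cells moved in the same direction. Of the 8 T cell markers, 7 rose with LEN and 0 fell, and their summed level had a median of 8.98 TPM (2.4 to 126) in NT and 16.9 TPM (2.97 to 119) in LEN tumors. Cd4 and Cd8a rose and Cd8b1 was not called, and of 4 genes of regulatory T cells, which constitutively express CTLA-4, 3 rose (Foxp3, Il2ra and Ccr8). Other cell types moved too. All 4 neutrophil markers, 2 of 4 NK cell markers and 3 of 6 dendritic cell markers rose, while 6 of 7 macrophage markers and 3 of 3 endothelial markers fell. Summed macrophage markers had a median of 622 TPM in NT (72.9 to 1651) and 408 TPM in LEN tumors (244 to 1529), and summed endothelial markers 38.2 TPM (18.3 to 100.05) and 19.0 TPM (9.28 to 37.4). Of the 4 B cell markers, 2 were expressed enough to be tested and 0 were called. Apart from the T cell markers, taken up later, the part of these cell types in the receptor levels was not tested.

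The effect of LEN differed between models for 5 of the 10 receptors, namely Lag3, Havcr2, Tigit, Btla and Tnfrsf9, against 28.7% of all genes. Tests within single models, each of 3 against 3 tumors, called 17 of the 120 pairs of receptor and model higher and 0 lower, where 2.57% of all gene and model tests were called higher and 0.874% lower. The calls came from B16-F10 (9 receptors), BNL 1ME A.7R.1 (4) and Renca (4). The 3 LEN tumors lay above the 3 NT tumors without overlap in 38 pairs and below them in 6 (11.7% and 9.85% of all gene and model tests).

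In B16-F10, all 10 receptors were higher in every LEN tumor than in any NT tumor, as were 19.3% of the genes tested in this model, and 9 were called higher, as were 6.48% of the genes. Ctla4 was listed at 0, 0.15 and 0.19 TPM in the NT tumors and was 1.72, 2.32 and 2.39 TPM in the LEN tumors (difference 1.49 ± 0.15, adjusted p = 0.0053). Lag3 increased from 0.51, 0.53 and 0.84 to 2.35, 2.56 and 2.63 TPM (1.12 ± 0.14, adjusted p = 0.0077). Pdcd1 increased from 0.15, 0.17 and 0.59 to 1.35, 1.91 and 2.29 TPM (1.13 ± 0.20, adjusted p = 0.021). Tigit was the receptor not called (0.97 ± 0.32, adjusted p = 0.13), one NT tumor being at 1.28 TPM and the lowest LEN tumor at 1.42 TPM. In a fit of all models together all 10 were called higher in this model, Tigit with an adjusted p of 0.0057, against 7.13% of all genes. The summed T cell markers of this model were 2.4 to 5.68 TPM in NT and 14.7 to 19.7 TPM in LEN tumors, and the summed macrophage markers were 72.9 to 109 TPM and 244 to 356 TPM, in contrast to their fall over the models. Summed markers of regulatory T cells (3.35 to 4.62 TPM in NT, 9.89 to 11.35 TPM in LEN), NK cells (0 to 0.42 and 2.47 to 3.72 TPM), dendritic cells (5.55 to 7 and 10.04 to 13.2 TPM) and neutrophils (1.22 to 7.02 and 10.03 to 14.03 TPM) were higher too, as was the sum of Cd4, Cd8a and Cd8b1 (0.49 to 1.32 and 4.82 to 5.58 TPM). Summed endothelial markers were lower with LEN (18.3 to 26.3 and 10.85 to 12.6 TPM). The part of these cell types was not tested. Leaving out 1 tumor of this model could end the calls of 7 receptors, with adjusted p up to 0.14 for Tnfrsf9 and 0.13 for Havcr2, whereas those of Ctla4 and Lag3 were kept in all 6 such fits. Havcr2 and Tnfrsf9 were also not called with no minimum on TPM (adjusted p = 0.069 and 0.065) or with the replicate block (0.056 and 0.058), nor was Tnfrsf9 without the mean-variance trend (0.061).

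In BNL 1ME A.7R.1, 4 receptors (Pdcd1, Ctla4, Tigit and Icos) were called higher, where 19.9% of the genes tested in this model were. Tigit was 0.66, 0.76 and 1.09 TPM in NT and 3.42, 4.43 and 6.52 TPM in LEN tumors (1.63 ± 0.22, adjusted p = 0.0032), its largest change in any model. Pdcd1 was 0.04, 0.09 and 0.15 TPM in NT and 0.69, 0.74 and 0.8 TPM in LEN tumors (0.67 ± 0.11, adjusted p = 0.0069). Cd27 alone overlapped between these groups, and the other 9 receptors were higher without overlap, as were 33.5% of the genes. Ctla4 was no longer called in 4 of 6 fits with a tumor of this model left out (adjusted p up to 0.075), and Icos in 1 (0.053). The summed T cell markers rose here as well, from between 8.45 and 11.1 TPM to between 20.97 and 23.7 TPM. Summed markers of NK cells (3.86 to 6.55 TPM in NT, 7.79 to 10.25 TPM in LEN), B cells (0.83 to 1 and 1.95 to 2.54 TPM), dendritic cells (10.31 to 11.3 and 18.96 to 28 TPM) and regulatory T cells (5.52 to 6.24 and 8.29 to 12.4 TPM) were also higher without overlap, as was the sum of Cd4, Cd8a and Cd8b1 (1.44 to 2.39 and 5.34 to 7.93 TPM). Summed endothelial markers were lower (84.4 to 100.05 and 32.1 to 37.1 TPM). The part of these cell types was not tested. In the fit of all models together, Tigit and Btla (adjusted p = 0.0054) were called, against 17.5% of all genes called higher there, and Pdcd1 (adjusted p = 0.14), Ctla4 (0.090) and Icos (0.10) were not.

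Renca showed a different combination, with 4 receptors called higher against 3.48% of the genes tested in this model. Tnfrsf9 was 22.9, 23.7 and 29.8 TPM in NT and 94.5, 112 and 126 TPM in LEN tumors, a 4.35-fold difference of the means. The difference in log2(TPM + 1) of 2.08 ± 0.14 (adjusted p = 0.00086) was the largest among the 120 pairs on that scale, whereas the fold of mean TPM was larger for genes at low TPM, such as Ctla4 in B16-F10 (18.9-fold), and with a pseudocount of 0.1 Ctla4 in B16-F10 (3.52) was above Tnfrsf9 in Renca (2.12). Icos (0.81 ± 0.12, adjusted p = 0.010), Ctla4 (0.56 ± 0.12, adjusted p = 0.038) and Pdcd1 (0.46 ± 0.11, adjusted p = 0.045) were higher, while every LEN tumor lay below every NT tumor for Lag3 (0.53 against 0.86 TPM) and Havcr2 (2.56 against 3.42 TPM), neither of which was called. In this direction 17.5% of the genes tested in Renca did not overlap. The summed T cell markers overlapped (21.4 to 25.9 TPM in NT and 23.1 to 26.7 TPM in LEN tumors), but the mean log2(TPM + 1) of the same markers did not (1.03 to 1.22 in NT and 1.5003 to 1.61 in LEN tumors). The T cell marker Cd3e alone did not overlap either (0.55 to 0.69 TPM in NT and 1.82 to 2.79 TPM in LEN tumors). Summed markers of regulatory T cells (1.12 to 2.02 TPM in NT, 3.56 to 4.42 TPM in LEN), NK cells (0.11 to 0.19 and 0.49 to 0.65 TPM), dendritic cells (10.36 to 10.79 and 13.44 to 17.18 TPM) and neutrophils (14.28 to 15.11 and 29.27 to 39.25 TPM) were higher with LEN, whereas Cd4, Cd8a and Cd8b1 summed to less (1.64 to 2.25 TPM against 2.64 to 3.59 TPM), as did the macrophage markers (376 to 413 TPM against 803 to 908 TPM) and the endothelial markers (10.65 to 13.2 TPM against 34.4 to 46.6 TPM). The part of these cell types was not tested. The antisense gene Camta1, within which most of Tnfrsf9 lies, was 14.6 ± 3.79 TPM in NT and 13.0 ± 2.99 TPM in LEN tumors of Renca. With protein-coding rescaling the differences in Renca were larger, namely 1.25 for Icos, 0.97 for Ctla4 and 0.81 for Pdcd1. Pdcd1 in Renca was no longer called without any of its 6 tumors, and Ctla4 without 5 of them (adjusted p up to 0.12 for each). In the fit of all models together, Tnfrsf9 was called in Renca (as were 3.29% of all genes, higher) and Icos (adjusted p = 0.061), Ctla4 (0.34) and Pdcd1 (0.56) were not.

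Tnfrsf9 was also higher without overlap, though not called within the model, in Hepa 1-6 (19.8 to 23.3 TPM in NT, 46.8 to 65.1 TPM in LEN, 1.32 ± 0.14, adjusted p = 0.068), RAG (20.9 to 30.01 TPM in NT, 42.1 to 60.3 TPM in LEN, 1.07 ± 0.18, adjusted p = 0.21), EMT6, MC38 and BNL 1ME A.7R.1. The fit of all models together called it in Hepa 1-6 (adjusted p = 0.0014) and RAG (0.037). Other cell types moved in some of these models, and their part was not tested. Without overlap, summed endothelial markers were lower with LEN in RAG (27.7 to 34.2 TPM in NT, 15.5 to 16.5 TPM in LEN) and MC38 (38.6 to 48.8 and 30.3 to 31.8 TPM), neutrophil markers were lower in RAG (15.4 to 17 and 11.4 to 13.2 TPM) and higher in EMT6 (113 to 155 and 178 to 291 TPM), and macrophage markers were lower in MC38 (423 to 724 and 278 to 366 TPM). In EMT6 the T cell markers (4.11 to 7.65 and 7.73 to 16.99 TPM) and NK cell markers (means of 0.923 and 2.43 TPM) were higher, as were the B cell markers in MC38 (3.77 to 4.63 and 4.64 to 6.58 TPM), and in Hepa 1-6 all the summed lists overlapped. Without Renca, the F test of a difference in its effect was no longer past the threshold (adjusted p = 0.12). Lag3 was the receptor with the most opposed effects. It was lower in all 3 LEN tumors than in any NT tumor in 4T1, Renca, LL/2 and KLN205, and higher in BNL 1ME A.7R.1, EMT6 and B16-F10. In KLN205, Lag3 was 6.73, 7.23 and 7.33 TPM in NT and 2.3, 2.57 and 3.28 TPM in LEN tumors (-1.13 ± 0.15, adjusted p = 0.081 within the model and 0.024 in the fit of all models together). Summed macrophage markers of KLN205 were lower with LEN as well (537 to 621 TPM in NT, 297 to 380 TPM in LEN), as were its endothelial markers (40.02 to 56.05 and 18.6 to 26.9 TPM). Its markers of T cells (2.56 to 3.46 and 3.58 to 4.89 TPM), regulatory T cells (15.5 to 18.2 and 23.6 to 25.2 TPM) and neutrophils (37.2 to 53.3 and 58.5 to 79.7 TPM) were higher, and the part of these cell types was not tested. Macrophage markers were also lower with LEN in LL/2 (473 to 623 and 244 to 249 TPM) and 4T1 (753 to 940 and 302 to 623 TPM). So were endothelial markers in LL/2 (20.4 to 22.9 and 9.28 to 10.6 TPM) and 4T1 (30.3 to 48.2 and 12.7 to 25.1 TPM). In LL/2, neutrophil markers were higher (16.1 to 36.5 and 163 to 187 TPM) and B cell markers lower (0.6 to 1.08 and 0.41 to 0.52 TPM). Their part was not tested. Without KLN205, the F test of Lag3 gave an adjusted p of 0.053.

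**Figure D4:**
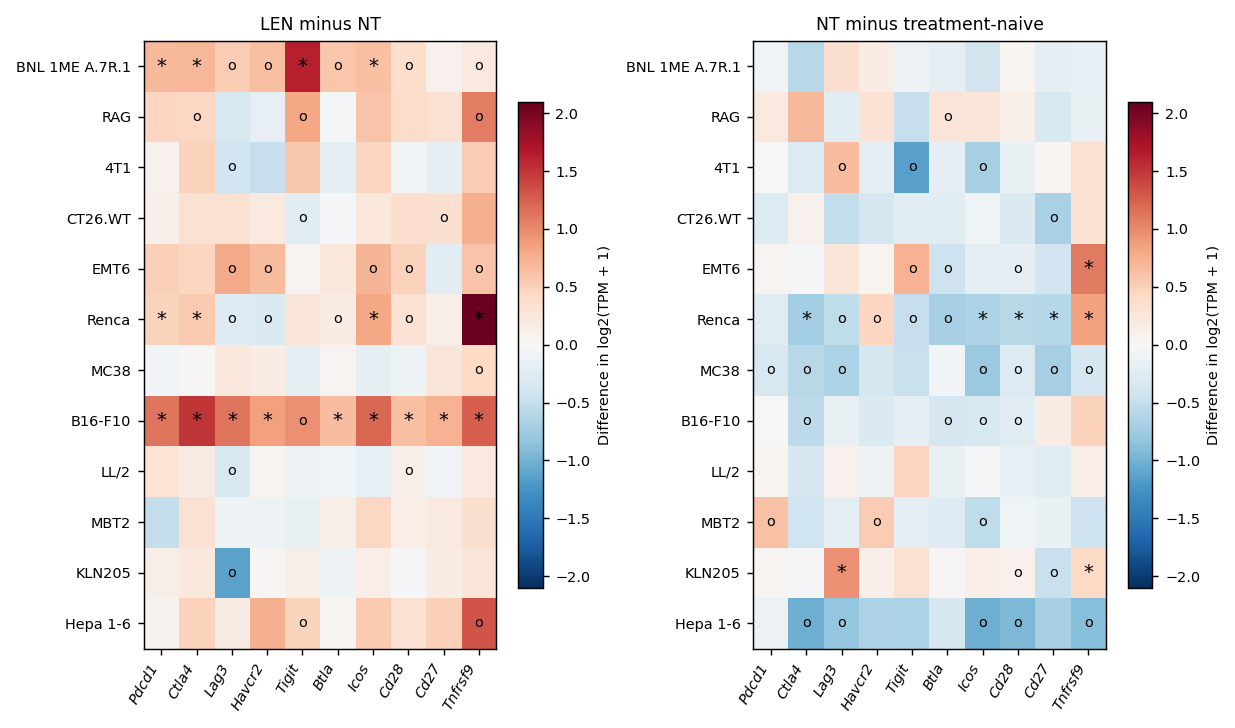
Differences in log2(TPM + 1) of the 10 receptors in each of the 12 models for LEN minus NT (left) and NT minus treatment-naive tumors (right), with red for higher and blue for lower. Asterisks mark an adjusted p under 0.05 within the model and circles mark groups that do not overlap but were not called. With LEN the row of B16-F10 is red throughout, and the deepest red is Tnfrsf9 in Renca.

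The NT tumors of day 8 were also compared with the treatment-naive tumors, which are a separate set of tumors. As the batch of each tumor is unknown, growth, time and a batch of collection or sequencing cannot be told apart in this comparison. The same NT tumors serve as the reference for LEN, so that the comparisons are not independent. On average 6 of the 10 receptors were lower in the day 8 tumors and 0 were higher, against 11.4% lower and 11.7% higher of 25687 genes. Of all genes called, 50.7% were higher, and 24.4% with upper-quartile rescaling, while the number of receptors lower was 6 under 7 of 8 alternatives and 4 with a minimum mean of 1 TPM, under which Btla and Cd28 were not tested. With a pseudocount of 0.1 the same 6 were lower, by up to 0.77 (Ctla4), and with protein-coding rescaling Btla was lower by 0.35. The receptors that fell were Icos (-0.36 ± 0.074, adjusted p = 0.00027), Cd27 (-0.36 ± 0.062, adjusted p = 2.55e-05), Ctla4 (-0.32 ± 0.078, adjusted p = 0.0021), Cd28 (-0.22 ± 0.050, adjusted p = 0.00088), Btla (-0.22 ± 0.046, adjusted p = 0.00036) and Tigit (-0.21 ± 0.065, adjusted p = 0.016), each of them lower in 9 or 10 of the 12 models. Tnfrsf9 (0.13 ± 0.086, adjusted p = 0.29), Pdcd1 (-0.0095 ± 0.093, adjusted p = 0.96), Lag3 (-0.068 ± 0.093, adjusted p = 0.65) and Havcr2 (-0.031 ± 0.068, adjusted p = 0.79) were not called. Tigit was not called without 4T1 (-0.12, adjusted p = 0.24), Hepa 1-6 (adjusted p = 0.068) or Renca (adjusted p = 0.051). Of the 8 T cell markers 5 fell and 0 rose. Of the other lists, 6 of 6 dendritic cell, 3 of 4 NK cell, 3 of 4 regulatory T cell, 2 of 3 endothelial, 2 of 4 neutrophil and 2 of 7 macrophage markers fell, and their part was not tested.

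The day 8 effect differed between models for 8 of the 10 receptors, all but Pdcd1 and Cd27, where 50.2% of all genes differed, and this count was 2 with upper-quartile rescaling. Within models, 4 of 120 pairs were called higher and 4 lower (3.72% and 1.09% of all gene and model tests), and the groups did not overlap in 11 pairs upward and 30 downward (13.4% and 13.2%). Renca held all 4 lower calls of these tests, and 4.66% of the genes tested there were lower. The fit of all models together called 12 pairs lower (4.09% of all gene and model tests of that fit), of which 7 were in Hepa 1-6, where 14.8% of all genes were lower (Cd28 with an adjusted p of 9.91e-05, Icos with 0.0033, Ctla4 with 0.0056, and Cd27, Tnfrsf9, Tigit and Havcr2 with 0.017 to 0.046), 2 in Renca (Btla and Cd28, where 7.4% of all genes were lower), and the others Tigit in 4T1 (adjusted p = 0.00037), Cd27 in CT26.WT and Btla in EMT6. Cd28 was 0.52, 0.57 and 0.66 TPM in treatment-naive Renca tumors and 0.04, 0.06 and 0.07 TPM on day 8 (-0.58 ± 0.10, adjusted p = 0.029), Ctla4 went from 0.57, 0.71 and 1.02 to 0.06, 0.06 and 0.1 TPM (-0.71 ± 0.13, adjusted p = 0.031), and Icos (-0.66 ± 0.12) and Cd27 (-0.61 ± 0.13) also fell. In the same model the summed markers of T cells (30.25 to 33.8 TPM in treatment-naive tumors, 21.4 to 25.9 TPM on day 8), regulatory T cells (4.12 to 6.33 and 1.12 to 2.02 TPM), NK cells (1.13 to 1.8 and 0.11 to 0.19 TPM), dendritic cells (24.1 to 29.8 and 10.36 to 10.79 TPM), macrophages (1061 to 1197 and 803 to 908 TPM), neutrophils (18.35 to 23.7 and 14.28 to 15.11 TPM) and endothelium (65.7 to 88.5 and 34.4 to 46.6 TPM) were lower on day 8 without overlap, as was the sum of Cd4, Cd8a and Cd8b1 (4.48 to 5.62 and 2.64 to 3.59 TPM). In Hepa 1-6 those of regulatory T cells (15.3 to 19.3 and 8.09 to 12.25 TPM), B cells (2.04 to 6.57 and 0.46 to 1.58 TPM), NK cells (4.84 to 7.3 and 0.67 to 4.11 TPM), dendritic cells (19.3 to 23.9 and 10.78 to 16.5 TPM) and macrophages (965 to 1391 and 433 to 782 TPM) were, whereas those of T cells overlapped. The part of these cell types was not tested. In Renca the T cell marker Cd3e alone was 1.97 to 4.26 TPM in treatment-naive tumors and 0.55 to 0.69 TPM on day 8. In the Renca tumors Tnfrsf9 rose from 13.1, 13.5 and 14.3 to 22.9, 23.7 and 29.8 TPM (0.85 ± 0.12, adjusted p = 0.018). Tnfrsf9 rose in EMT6 too, from 8.62, 9.23 and 10.1 to 16.04, 19.9 and 29.01 TPM (1.09 ± 0.20, adjusted p = 0.018), and in KLN205 (0.41 ± 0.10, adjusted p = 0.041), whereas in Hepa 1-6 every day 8 tumor lay below every treatment-naive tumor (-0.90 ± 0.16, adjusted p = 0.081). Lag3 rose in KLN205, from 2.48, 2.81 and 4.41 to 6.73, 7.23 and 7.33 TPM (0.96 ± 0.19, adjusted p = 0.021), and so did its summed macrophage markers (287 to 505 and 537 to 621 TPM) and its endothelial markers (31.6 to 39.4 and 40.02 to 56.05 TPM), while its T cell markers were lower (3.84 to 4.23 and 2.56 to 3.46 TPM). In EMT6 the dendritic cell markers (9.16 to 16.7 and 3.95 to 7.65 TPM) and endothelial markers (54.8 to 95.07 and 29.8 to 52.9 TPM) were lower on day 8. In 4T1 the T cell markers were lower on day 8 (10.48 to 15.86 and 5.12 to 6.1 TPM). So were its regulatory T cell markers (10.58 to 13.15 and 9.7 to 10.35 TPM) and endothelial markers (48.44 to 63.37 and 30.3 to 48.19 TPM). Its macrophage markers were higher (549 to 674 and 753 to 940 TPM), whereas those of CT26.WT were lower (683 to 914 and 536 to 605 TPM). The part of these cell types in these models was not tested. With upper-quartile rescaling the calls in KLN205 (adjusted p = 0.30 for Lag3 and 0.67 for Tnfrsf9) and that in EMT6 (adjusted p = 0.052) were lost, the difference of Tnfrsf9 in KLN205 being 0.14 there and 0.12 with protein-coding rescaling, and those in Renca, apart from Cd28, with a fit of all models together or when single tumors were left out. Cd28 in Renca was lost when any of its 6 tumors was left out, as was Tnfrsf9 in KLN205, while Lag3 in KLN205 was lost in 4 and Tnfrsf9 in EMT6 in 2 of 6 such fits.

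Since T cell markers moved with the receptors, the mean differences were also fitted with the mean log2(TPM + 1) of the 8 T cell markers of each tumor as a covariate. The slope of a receptor on this mean in the NT and LEN tumors was above 0 and called for 8 of the 10, and for 9.75% of all genes. It was steepest for Pdcd1 (1.29 ± 0.11 per unit), Lag3 (1.08 ± 0.13), Icos (0.97 ± 0.12) and Ctla4 (0.94 ± 0.14), and those not called were Tnfrsf9 (0.48 ± 0.17, adjusted p = 0.057) and Cd27 (0.25 ± 0.12, adjusted p = 0.18). At equal T cell marker level, 1 receptor was higher with LEN and 1 lower, where 4.7% of all genes were higher and 10.6% lower. The count of 1 lower is thus close to what genes in general show. Tnfrsf9 remained higher (0.60 ± 0.093, adjusted p = 3.60e-06), and Lag3 was lower (-0.31 ± 0.071, adjusted p = 0.0013). The differences of Ctla4 (0.16 ± 0.078, adjusted p = 0.16), Icos (0.13 ± 0.066, adjusted p = 0.19), Tigit (0.17 ± 0.079, adjusted p = 0.16), Cd27 (0.10 ± 0.066, adjusted p = 0.33) and Cd28 (0.012 ± 0.041, adjusted p = 0.89) were no longer called, and that of Pdcd1 was -0.14 ± 0.059 (adjusted p = 0.092). With the 3 CD3 chains alone as the covariate, Ctla4 (0.23), Icos (0.20) and Tigit (0.22) were higher as well, so that 4 receptors were called higher.

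For the day 8 tumors against treatment-naive tumors at equal T cell marker level, 2 receptors were higher and 1 lower, against 9.42% and 5.07% of all genes. Pdcd1 (0.29 ± 0.069, adjusted p = 0.0026) and Tnfrsf9 (0.27 ± 0.093, adjusted p = 0.040) were higher, and Cd27 was lower (-0.30 ± 0.070, adjusted p = 0.0025). Tnfrsf9 was not called with a pseudocount of 0.1 or with protein-coding rescaling, nor in 17 of 71 fits with a tumor left out, among them that without NT replicate 3 of CT26.WT (0.21, adjusted p = 0.14), in which Icos (-0.17) and Btla (-0.14) were lower as well. With Cd3e alone as the covariate, Pdcd1 was no longer called (0.15, adjusted p = 0.10), and Ctla4 (-0.20), Btla (-0.18), Icos (-0.24) and Cd28 (-0.13) were lower. The markers are themselves measured in these tumors, and the fit describes unequal change of receptor and marker rather than change per T cell.

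**Figure D5:**
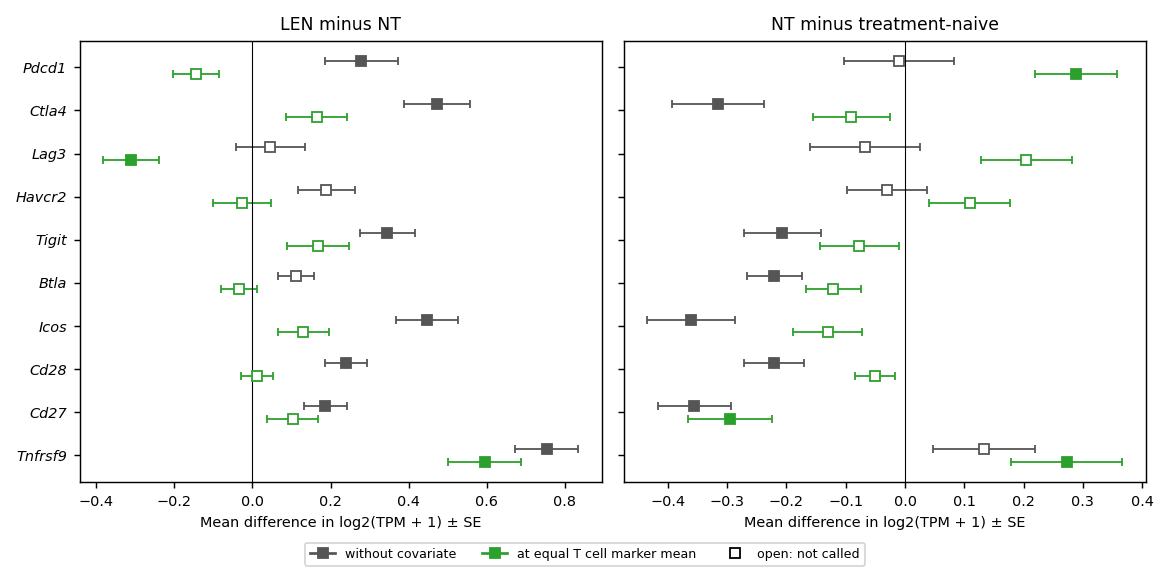
Mean differences in log2(TPM + 1) with their SE for LEN minus NT (left) and NT minus treatment-naive tumors (right), in gray without a covariate and in green at equal mean of the 8 T cell markers. Filled squares have an adjusted p under 0.05. Only Tnfrsf9 stays filled above 0 with LEN in both fits, and Lag3 is filled below 0 in the second.

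The ligands of these receptors were examined as a list of 15 genes, of which 14 were expressed enough to be tested. For this list and those of the next paragraph, 10.7% of all genes were higher and 7.56% lower with LEN. On day 8 these shares were 11.7% and 11.4%. With LEN, 6 of the ligands rose and 2 fell. The largest changes were those of Lgals3 (0.60 ± 0.051, adjusted p = 1.84e-13), which encodes galectin-3, Cd274 (0.59 ± 0.11, adjusted p = 2.41e-05) and Pdcd1lg2 (0.56 ± 0.11, adjusted p = 0.00017), which encode PD-L1 and PD-L2, and Tnfsf9 (0.39 ± 0.056, adjusted p = 3.00e-07), which encodes the ligand of 4-1BB. The 2 that fell, named after their values were seen, were Icosl (-0.18 ± 0.058, adjusted p = 0.019), the ligand of ICOS, and Nectin3 (-0.15 ± 0.038, adjusted p = 0.0020). Thus Tnfrsf9 and Tnfsf9 rose together in the mean of the models, each being higher in 12 of 12, whereas Icos rose and Icosl fell. Cd70, the ligand of CD27, was below the minimum level for the test. From treatment-naive tumors to day 8 without treatment, 4 ligands fell, namely Pdcd1lg2 (-0.62 ± 0.11, adjusted p = 6.29e-05), Cd274 (-0.34 ± 0.12, adjusted p = 0.037), Cd80 (-0.27 ± 0.064, adjusted p = 0.0011) and Ceacam1 (-0.18 ± 0.063, adjusted p = 0.036), and Nectin2, named after its value was seen, rose (0.10 ± 0.035, adjusted p = 0.028).

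Of 12 related receptors of lymphocytes, 11 were tested. With LEN, 4 rose and 0 fell, namely Cd2 (0.45 ± 0.0998), a T cell adhesion receptor, Tnfrsf4 (0.35 ± 0.090) and Tnfrsf18 (0.28 ± 0.080), which encode the costimulatory receptors OX40 and GITR, and Cd5 (0.32 ± 0.065), with adjusted p between 0.00019 and 0.0083. Those not called included Cd96 (0.018 ± 0.056), Cd226 (0.15 ± 0.057) and Vsir (-0.064 ± 0.058). On day 8 without treatment, 10 of the 11 were lower than in treatment-naive tumors, with the largest changes in Tnfrsf4 (-0.52 ± 0.085), Cd2 (-0.46 ± 0.11), Cd244 (-0.31 ± 0.069) and Cd200r1 (-0.31 ± 0.068). Of 12 transcription factors described in exhausted or activated T cells, 3 rose with LEN and 0 fell, namely Nr4a3 (0.34 ± 0.085, adjusted p = 0.0025), Tcf7 (0.19 ± 0.058, adjusted p = 0.015) and Irf4 (0.16 ± 0.054, adjusted p = 0.030). Tox, a factor of the exhausted state, differed by 0.093 ± 0.057 (adjusted p = 0.29). On day 8 without treatment 5 of the 12 fell, with the largest changes in Nr4a3 (-0.33 ± 0.082), Batf (-0.30 ± 0.077), Irf4 (-0.30 ± 0.052) and Tbx21 (-0.19 ± 0.061), and 0 rose.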

How the data were processed

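Total RNA of 107 tumors was depleted of ribosomal RNA and sequenced on Illumina NovaSeq or NextSeq instruments (which tumor on which is not given in the sources used here). According to the methods of the study, reads were checked with FastQC, trimmed with Trimmomatic, aligned with STAR to the mouse genome and quantified with RSEM, and samples failing quality control were excluded. The deposited values are TPM per gene, which the authors rounded to 0.01, and their sum is the same in each tumor. No counts were used, so the depth is unknown and no counting interval is given.

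TPM was transformed as log2(TPM + 1), and genes with a mean of at least 0.1 TPM in the fitted tumors were tested with limma 3.58.1 (R 4.3.3), with a mean-variance trend, 1 mean per model and group, and Benjamini-Hochberg adjustment over all genes at a threshold of 0.05. Mean differences weight the 12 models equally. The F test compares the effect between models, and tests within a model use its tumors alone. In a further fit the mean of 8 T cell markers was a covariate. The groups are those of the sample labels, which do not say more of replicates than that they are separate tumors, and no pair of tumors had over 95% identical values. The procedure was tested on simulated data. The named genes are all receptors, the 3 genes most like each (1 of which is not reported here), and the called genes of 3 lists up to the 4 largest changes. Marker lists are given as counts and summed TPM, with some of their genes named. The members and lists were chosen with earlier results of these data known. Alternatives were another pseudocount (0.1), another minimum (1 TPM or none), rescaling by the upper quartile or without the Rn7 RNAs, no trend, other T cell covariates, a replicate block, a joint fit, leaving out each tumor or model and, chosen after seeing the data, rescaling over protein-coding genes. Replicate numbers shared between groups gave no sign of paired tumors (correlation of deviations over 0.1 in 0 of 20 pairs of NT and LEN and 0 of 25 pairs of treatment-naive and NT tumors). With so few tumors in a group, this check cannot exclude a batch shared by equal numbers. Gene positions are from GENCODE M21, which held 50376 of the 50686 genes.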

Additional observations from a re-analysis of the deposited data

Results flagged for a closer look

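For the receptors below, the effect differed between the 12 models by the F test of limma, with adjusted p under 0.05. For LEN against NT these were Tigit (F = 5.24, adjusted p = 0.00025), Tnfrsf9 (F = 4.28, adjusted p = 0.0015), Lag3 (F = 3.96, adjusted p = 0.0028), Havcr2 (F = 3.12, adjusted p = 0.015) and Btla (F = 2.70, adjusted p = 0.033). For NT on day 8 against treatment-naive tumors these were Tigit (F = 5.29, adjusted p = 0.00013), Tnfrsf9 (F = 3.58, adjusted p = 0.0032), Cd28 (F = 3.05, adjusted p = 0.0095), Lag3 (F = 2.85, adjusted p = 0.015), Ctla4 (F = 2.77, adjusted p = 0.017), Havcr2 (F = 2.42, adjusted p = 0.036), Icos (F = 2.31, adjusted p = 0.045) and Btla (F = 2.29, adjusted p = 0.048). On day 8, with 1 tumor or model left out, Icos was not past the threshold in 51 of 83 fits, Btla in 46, Havcr2 in 13, Ctla4 in 5, and Lag3 and Cd28 in 1 each, and under other settings Icos was not in 5 of 7, Btla in 5 of 6, Lag3 in 3 of 7, Havcr2 in 2 of 7, Cd28 in 2 of 6 and Ctla4 in 1 of 7. The comparisons share the NT tumors. With LEN, the values that fell below the threshold when 1 model was left out were those of Tnfrsf9 without Renca (F = 2.11, adjusted p = 0.12), Lag3 without KLN205 (F = 2.55, adjusted p = 0.053), Havcr2 without B16-F10 (F = 2.57, adjusted p = 0.056) and Btla without B16-F10 (F = 1.67, adjusted p = 0.24), among others. No group held enough tumors for a test of outlying tumors.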

How the results depend on the processing

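No called difference changed sign under an alternative, whereas differences that were not called did in places, such as that of Lag3 with LEN (-0.052 to 0.15 with a tumor or model left out) and that of Havcr2 with LEN at equal T cell marker level (-0.028, and up to 0.015 with another setting). Of 655 values of single receptors under other settings, 588 kept their side of the threshold, 48 lost and 19 gained a call. Of 5390 values with a tumor or model left out, these were 5107, 238 and 45. With LEN, Havcr2 was called with a minimum of 1 TPM (adjusted p = 0.048) and with protein-coding rescaling (0.030), and Cd27 was lost without the Rn7 RNAs (0.15, adjusted p = 0.055). Causes were not tested.

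Upper-quartile rescaling gave 3416 genes lower with LEN (1938 in the report), 1501 higher and 4651 lower on day 8 without treatment (3002 and 2917), 2 receptors whose day 8 effect differed between models (8), 1 pair lower with LEN within models (0) and 2 pairs higher on day 8 (4). Rescaling without the Rn7 RNAs gave 3497 genes lower with LEN, 1570 higher on day 8, 5 receptors that differed and 2 pairs higher on day 8, and 26.5% of the genes called on day 8 were higher. Protein-coding rescaling gave 1063 genes higher on day 8 (21.5% of those called), 4 receptors that differed, 1 pair lower with LEN, 8 pairs lower on day 8 (4) and, at equal T cell marker level on day 8, 1 receptor higher (2) and 2 lower (1). With no minimum, 5 receptors differed on day 8. With a minimum of 1 TPM, 11 pairs were higher (17) and 1 lower with LEN, and 2 lower on day 8. A pseudocount of 0.1 gave 1 receptor higher at equal marker level on day 8. Cd3e alone as the covariate gave 3 receptors higher with LEN (1) and, on day 8, 1 higher and 5 lower, and the 3 CD3 chains gave 4 higher with LEN and 4 lower on day 8. The joint fit gave 1 pair lower with LEN and 12 lower on day 8.

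Without single tumors or models, 5 to 9 receptors were higher and 0 lower with LEN, among 1609 to 3653 genes higher and 1474 to 2468 lower, and 3 to 7 differed between models. On day 8, 5 to 6 were lower and 0 higher, among 1814 to 3879 genes higher and 2152 to 3263 lower, and 4 to 8 differed between models. At equal marker level, where tumors but no models were left out, 1 was higher and 1 to 2 lower with LEN, and 1 to 3 higher and 1 to 3 lower on day 8. Within models, again with tumors alone left out, 10 to 18 pairs were higher and 0 lower with LEN, and 2 to 4 higher and 0 to 5 lower on day 8. All 10 receptors differed between treatment-naive models in each of these fits. The 9 receptors were reached without 4T1 LEN replicate 4, CT26.WT NT replicate 3, Hepa 1-6 NT replicate 4 or the model 4T1.

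With the replicate number as a block, 2817 genes were higher and 2036 lower with LEN and 2965 and 2872 on day 8, with consensus correlations of 0.0589 and -0.0172. The block ended the calls of Havcr2 (0.84, adjusted p = 0.056) and Tnfrsf9 (1.24, adjusted p = 0.058) within B16-F10. The tumors share only a number. Within models, the block could be fitted for 8 models with LEN and 11 on day 8. The depth behind low TPM, such as those of Pdcd1, Ctla4, Btla and Cd28 in many models, is unknown.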
